A study of Homo sapiens with 6 samples.

Results

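The circadian clock genes described here are CLOCK, BMAL1 (older name ARNTL), PER1, PER2, PER3, CRY1, CRY2, NR1D1, NR1D2 and DBP, 10 of the 60483 genes listed in each count table. They were chosen by name as the core of the clock and one of its output factors, and the Ensembl ID of each was matched to its symbol. RNA was sequenced from DLD-1, a human colorectal adenocarcinoma line, after transfection with siRNA against AHR (3 libraries) or with a control siRNA (3 libraries). AHR encodes the aryl hydrocarbon receptor, a transcription factor of the bHLH-PAS family to which CLOCK and BMAL1 also belong. The line carries no other manipulation in the labels. The sources used here do not give the siRNA sequences, the hours between transfection and harvest or any synchronisation of the cells, so each library is 1 unplaced moment with respect to clock time.

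In the clock, the proteins CLOCK and BMAL1 bind as a dimer to E-box sequences and switch on the PER and CRY genes, whose proteins then accumulate and block that dimer. In a linked loop the same dimer switches on NR1D1 and NR1D2, which encode the nuclear receptors REV-ERB alpha and beta, and these repress BMAL1 in competition with the activating ROR receptors. DBP is a PAR-bZIP factor that the dimer drives directly and that carries the rhythm to genes with a D-box. Most cultured cells keep such a clock, but in an unsynchronised dish the phases of single cells differ.

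The labels were checked first, with levels in CPM (the usual unit for sequencing counts, here relative to the scaled sum over tested genes). AHR stood at 95.8, 87.4 and 94.95 CPM in the AHR siRNA libraries, against 117, 144 and 132 CPM in the control siRNA libraries (here and below in the order of replicates 1, 2 and 3), so the targeted transcript was reduced to 70.8% of control (edgeR adjusted p = 1.98e-05). Library totals were 11567736 to 12937058 counts in AHR siRNA and 13585529 to 15037145 counts in control siRNA. The chi-square per gene, which is near 1 for pure sampling noise, was 4.01 to 6.83 between AHR siRNA libraries and 1.62 between control siRNA replicates 2 and 3. Control siRNA replicate 1 was unlike its partners, at 10.9 against replicate 2 and 9.36 against replicate 3. The 11 epithelial markers summed to 8481 to 8781 CPM of the library totals in AHR siRNA and 11154 to 12166 CPM in control siRNA. Their levels were uneven. KRT8 averaged 3902 CPM in AHR siRNA and 6359 CPM in control siRNA. CEACAM5 averaged only 0.414 and 1.48 CPM, and LGALS4 1.14 and 1.28 CPM, in AHR siRNA and control siRNA. Of the 10 epithelial markers tested, 6 were called lower and 1 higher (VIL1, log2 fold change 2.17). Among all tested genes 60.1% were called, 30.1% lower and 30.0% higher. CDX1 had at most 10 counts in any library, and the part of these changes in the clock gene results was not tested. The 9 fibroblast markers summed to 5.97 to 8.04 CPM in AHR siRNA and 5.59 to 7.38 CPM in control siRNA, with DCN, LUM, PDGFRA and THY1 at 0. The 9 leukocyte markers summed to 2.47 to 3.10 CPM in AHR siRNA and 3.31 to 4.52 CPM in control siRNA, with MS4A1 at 0, and the 6 endothelial markers to 6.34 to 7.44 CPM in AHR siRNA and 4.99 to 6.24 CPM in control siRNA, with KDR at 0.

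All 10 clock genes were expressed and tested. PER2, CRY1, NR1D1 and BMAL1 were lower in AHR siRNA cells, to between 60.4% and 81.4% of control, and no clock gene was called higher. CLOCK, PER1, PER3, CRY2, NR1D2 and DBP were not called. A call is an adjusted p under 0.05 in edgeR's quasi-likelihood test over all 14900 tested genes. The background to this count is wide: 60.1% of all tested genes were called, 30.0% higher and 30.1% lower, so 4 of 10 lower lies near the share among all genes. With library totals alone the split over all genes was 5885 higher and 3205 lower, in place of 4474 and 4479, and 3 of the 10 genes were called, all lower. The median log2 fold change of the 10 genes was -0.27, against 0.01 over all tested genes, and the median size of change without regard to sign was 0.27, against 0.39 over all tested genes. The groups did not overlap in CPM for 5 of the 10 genes, against 63.7% of all tested genes. In a bulk sample a lower value can come from fewer cells that carry a transcript or from less of it in each cell, which cannot be told apart.

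**Figure D1:**
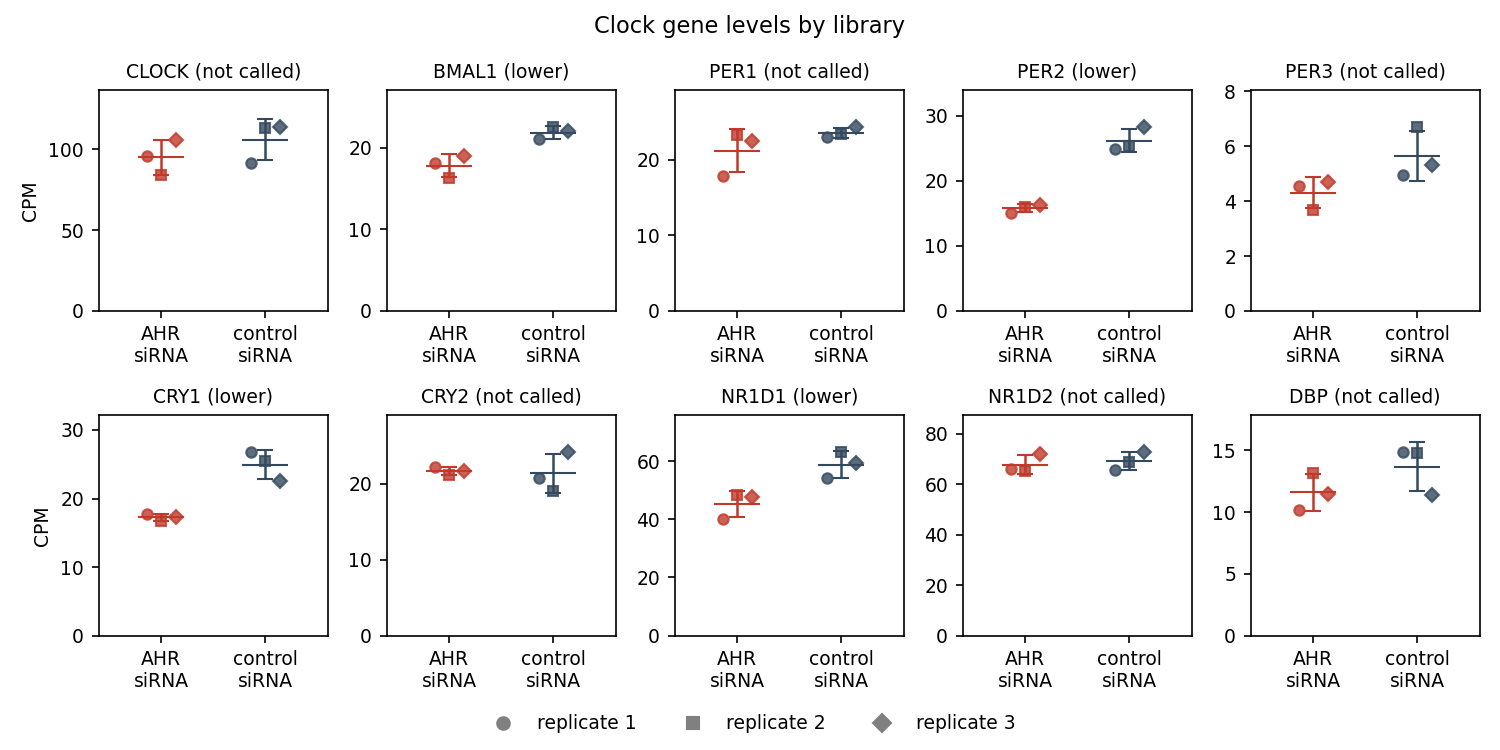
Level of each clock gene in CPM (vertical axis from 0) in the 3 AHR siRNA libraries and the 3 control siRNA libraries. Symbols mark the replicate, the horizontal bar is the mean and the whiskers are 1 SD. PER2 and CRY1 show the clearest separation, with the highest AHR siRNA library at 16.2 and 17.7 CPM and the lowest control siRNA library at 24.9 and 22.6 CPM.

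The promoters of the 4 lower genes are shown with those of PER1 and NR1D2, the uncalled relatives of PER2 and NR1D1. Clock proteins are known to act on each other's genes through promoter elements, and the letters of such elements were searched for here. Each is a RefSeq window (GRCh38.p14) from 250 bases before to 50 bases after an annotated start, on the strand of the gene and from 5′ to 3′. BMAL1 and NR1D2 have 2 such windows each. The one with a marked motif is shown, and the other held none of the motifs searched for. Capitals mark the E-box CACGTG, the weaker E-box variant CACGTT, the D-box TTATGTAA, its variant TTATGCAA and the ROR element core AGGTCA. Both strands were searched, so a motif can also stand in capitals as its reverse complement.
PER2 promoter, chr2:238288561-238288860, minus strand: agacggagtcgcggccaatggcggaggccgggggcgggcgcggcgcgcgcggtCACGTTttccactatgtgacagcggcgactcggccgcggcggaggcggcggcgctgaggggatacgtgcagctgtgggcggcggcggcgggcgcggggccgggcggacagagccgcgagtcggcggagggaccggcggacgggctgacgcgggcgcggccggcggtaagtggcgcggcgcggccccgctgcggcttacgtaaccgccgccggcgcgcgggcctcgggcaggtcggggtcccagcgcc
CRY1 promoter, chr12:107093500-107093799, minus strand: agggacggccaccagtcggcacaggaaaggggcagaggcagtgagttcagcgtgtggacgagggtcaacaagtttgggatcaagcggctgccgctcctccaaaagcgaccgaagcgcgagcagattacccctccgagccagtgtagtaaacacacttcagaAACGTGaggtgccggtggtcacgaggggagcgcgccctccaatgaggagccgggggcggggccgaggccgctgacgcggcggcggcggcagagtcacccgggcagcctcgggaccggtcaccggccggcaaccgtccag
NR1D1 promoter, chr17:40100540-40100839, minus strand: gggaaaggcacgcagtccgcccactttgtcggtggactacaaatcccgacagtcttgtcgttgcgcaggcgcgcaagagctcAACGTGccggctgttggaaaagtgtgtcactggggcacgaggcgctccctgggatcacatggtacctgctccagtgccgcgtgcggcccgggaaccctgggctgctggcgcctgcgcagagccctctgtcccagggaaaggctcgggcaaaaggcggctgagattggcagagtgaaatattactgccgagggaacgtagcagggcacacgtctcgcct
BMAL1 promoter, chr11:13277540-13277839, plus strand: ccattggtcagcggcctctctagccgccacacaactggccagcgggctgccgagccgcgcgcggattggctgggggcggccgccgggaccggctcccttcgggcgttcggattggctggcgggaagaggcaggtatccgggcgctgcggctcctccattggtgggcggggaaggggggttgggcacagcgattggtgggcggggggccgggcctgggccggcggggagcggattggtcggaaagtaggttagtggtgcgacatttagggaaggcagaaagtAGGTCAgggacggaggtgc
PER1 promoter, chr17:8152355-8152654, minus strand: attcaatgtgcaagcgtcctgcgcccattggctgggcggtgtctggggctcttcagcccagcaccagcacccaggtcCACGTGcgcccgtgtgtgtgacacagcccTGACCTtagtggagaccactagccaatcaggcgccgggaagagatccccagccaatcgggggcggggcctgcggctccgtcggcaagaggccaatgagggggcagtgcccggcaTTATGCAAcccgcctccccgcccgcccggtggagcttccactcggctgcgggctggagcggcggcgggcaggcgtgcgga
NR1D2 promoter, chr3:23945871-23946170, plus strand: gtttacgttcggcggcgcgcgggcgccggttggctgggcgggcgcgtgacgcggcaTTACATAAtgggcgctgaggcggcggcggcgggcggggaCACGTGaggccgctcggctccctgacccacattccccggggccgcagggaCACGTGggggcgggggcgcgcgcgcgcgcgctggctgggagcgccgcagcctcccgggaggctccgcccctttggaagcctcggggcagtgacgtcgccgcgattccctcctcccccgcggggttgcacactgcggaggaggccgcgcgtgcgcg

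All 10 genes had at least 1 RefSeq window, and a match in any window of a gene was counted. BMAL1 among the lower genes and CLOCK, PER3, CRY2 and NR1D2 among the uncalled genes had 2 windows. More sequence was thus searched in these genes. CACGTT was found in a window of 3 of the 4 lower genes (PER2, CRY1 and NR1D1) and of 2 of the 6 uncalled genes (CLOCK and CRY2), against 6.44% of all 27305 genes with a window. CACGTG was found in none of the 4 lower genes and in 2 of the 6 uncalled genes (PER1 and NR1D2), against 8.77% of all genes. NR1D2 holds it at 2 places, -155 and -105 bases from 1 of its 2 annotated starts. A D-box was found in NR1D2 and PER3 and its variant in PER1, against 1.13% and 1.06% of all genes. AGGTCA, the site that REV-ERB and ROR receptors share, was found 31 bases after 1 of the 2 annotated BMAL1 starts. It was also found in CRY2 and PER1, against 16.5% of all genes. GCGTG, the core that the AHR dimer recognises, was found in 2 of the 4 lower genes (CRY1 and NR1D1) and 5 of the 6 uncalled genes, against 40.6% of all genes, and it is not capitalised above. No motif overlapped another on this list in these windows. A match of letters is a description of the sequence, and binding was not measured.

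**Figure D2:**
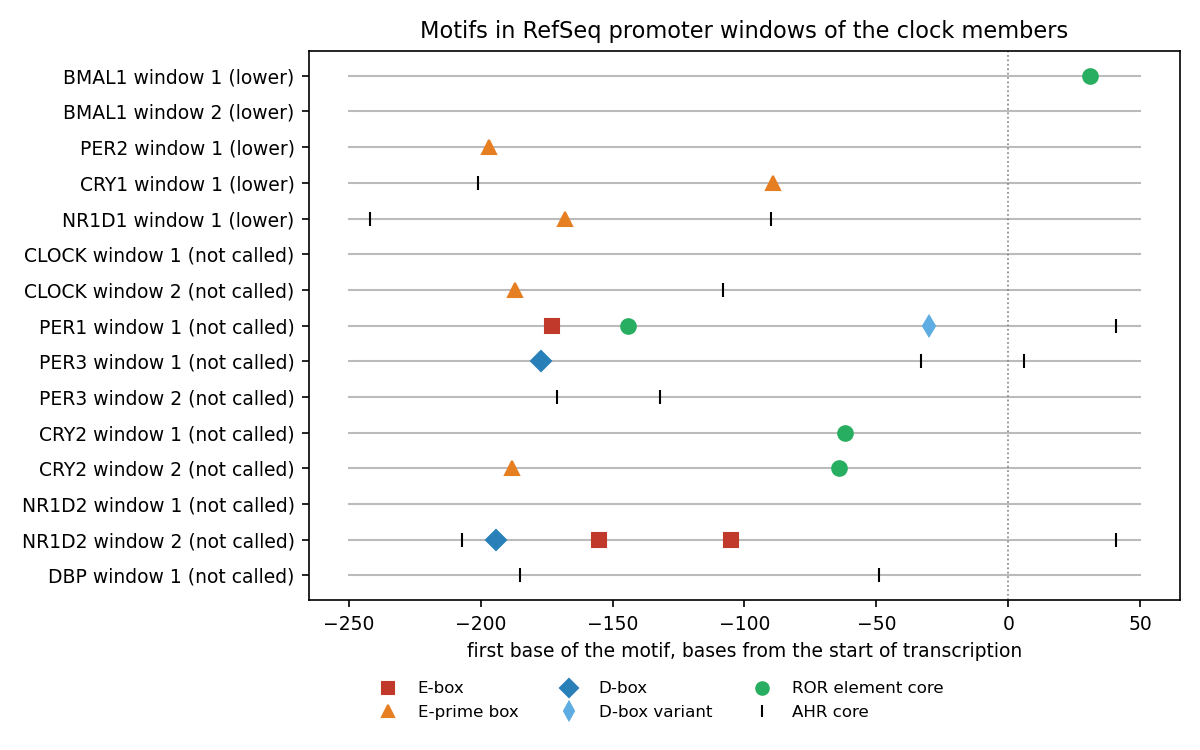
Position of each motif in the RefSeq promoter windows of the 10 clock genes, as bases from the annotated start (horizontal axis, with the start at 0). Each grey line is 1 window of 300 bases, genes with 2 annotated starts have 2 lines, and the 4 genes called lower are on top. The variant CACGTT (triangles) lies at -197 in PER2, -89 in CRY1 and -168 in NR1D1.

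In the activating arm BMAL1 fell, as did the alternative partners NPAS2 and BMAL2. BMAL1 (ENSG00000133794.16, chromosome 11), the partner without which the clock stops in mice, stood at 18.1, 16.3 and 18.9 CPM in the AHR siRNA libraries, against 21.0, 22.5 and 21.999 CPM in the control siRNA libraries. Every AHR siRNA library was below every control siRNA library, with means of 17.8 ± 1.38 and 21.8 ± 0.760 CPM (SD, n = 3 each). On the log2 scale it fell by 0.30 (SE 0.10, edgeR adjusted p = 0.0123). This was the least secure of the 4 calls: it was lost without AHR siRNA replicate 2 (-0.24, edgeR adjusted p = 0.0714), with upper-quartile scaling (-0.22, adjusted p = 0.0553) and with library totals alone (-0.15, adjusted p = 0.192).

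CLOCK (ENSG00000134852.13, chromosome 4), whose protein is also a histone acetyltransferase, was not called. It stood at 95.6, 83.9 and 105.6 CPM in the AHR siRNA libraries, against 91.4, 112.8 and 113.5 CPM in the control siRNA libraries. The groups overlapped through the low value of control siRNA replicate 1 and the high value of AHR siRNA replicate 3. CLOCK had a log2 fold change of -0.16 (95% confidence interval -0.35 to 0.03, edgeR adjusted p = 0.145). It passed the threshold without control siRNA replicate 1 (-0.26, edgeR adjusted p = 0.00139), the library that stood apart, and without AHR siRNA replicate 3 (-0.24, adjusted p = 0.0361). CLOCK shares 76 exon bases with TMEM165 on the other strand, whose log2 fold change was -0.06 (edgeR adjusted p = 0.432).

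NPAS2 can take the place of CLOCK, and BMAL2 that of BMAL1. NPAS2 stood at 13.7, 14.6 and 15.6 CPM in the AHR siRNA libraries, against 23.6, 23.5 and 24.4 CPM in the control siRNA libraries (log2 fold change -0.70, SE 0.10, edgeR adjusted p = 3.99e-06). BMAL2 stood at 23.4, 22.1 and 20.9 CPM in AHR siRNA and at 40.6, 41.9 and 38.7 CPM in control siRNA (log2 fold change -0.87, SE 0.08, edgeR adjusted p = 4.53e-08). In both, the highest AHR siRNA library lay far below the lowest control siRNA library.

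Among the repressors, PER2 and CRY1 fell. PER2 (ENSG00000132326.10, chromosome 2), a PER gene on whose protein the timing of human sleep is known to depend, stood at 15.1, 16.0 and 16.2 CPM in the AHR siRNA libraries, against 24.9, 25.3 and 28.2 CPM in the control siRNA libraries. The means were 15.8 ± 0.617 CPM in AHR siRNA and 26.2 ± 1.81 CPM in control siRNA (SD, n = 3 each). The log2 fold change was -0.73 (SE 0.10, edgeR adjusted p = 2.28e-06), the largest in size among the 10 genes, and it lay between -0.77 and -0.58 over 14 alternative settings.

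PER1 (ENSG00000179094.12, chromosome 17), a PER gene that acute signals such as glucocorticoids induce, was not called. It stood at 17.9, 23.2 and 22.5 CPM in the AHR siRNA libraries, against 23.0, 23.4 and 24.3 CPM in the control siRNA libraries. AHR siRNA replicate 1 was low and the other AHR siRNA libraries stood beside the control libraries. The log2 fold change was -0.15 (95% confidence interval -0.36 to 0.07, edgeR adjusted p = 0.228), and its sign turned with library totals alone (0.0020).

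PER3 (ENSG00000049246.13, chromosome 1), the PER gene that mouse clocks can do without, rested on 50 to 64 counts per AHR siRNA library and 66 to 97 counts per control siRNA library. It stood at 4.56, 3.68 and 4.70 CPM in the AHR siRNA libraries, against 4.95, 6.69 and 5.31 CPM in the control siRNA libraries. The groups did not overlap, but the gap between 4.70 and 4.95 CPM was smaller than the spread within either group. The log2 fold change was -0.40 (95% confidence interval -0.77 to -0.02 before adjustment, edgeR adjusted p = 0.0639), and it passed the threshold without control siRNA replicate 1 (-0.49, adjusted p = 0.0229). PER3 shares 868 exon bases with UTS2 on the other strand, which had 4, 3 and 1 counts in AHR siRNA and 0 in every control siRNA library.

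CRY1 (ENSG00000008405.10, chromosome 12), the stronger repressor of the CLOCK and BMAL1 dimer, stood at 17.7, 16.8 and 17.3 CPM in the AHR siRNA libraries, against 26.8, 25.4 and 22.6 CPM in the control siRNA libraries. The AHR siRNA libraries lay within 1 CPM of each other and all below control, with means of 17.3 ± 0.482 and 24.9 ± 2.12 CPM (SD, n = 3 each). On the log2 scale CRY1 fell by 0.53 (SE 0.10, edgeR adjusted p = 9.68e-05).

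CRY2 (ENSG00000121671.10, chromosome 11), the second cryptochrome, was not called. It stood at 22.2, 21.1 and 21.6 CPM in the AHR siRNA libraries, inside the span of 20.8, 19.0 and 24.2 CPM in the control siRNA libraries. CRY2 had a log2 fold change of 0.02 (95% confidence interval -0.19 to 0.23, edgeR adjusted p = 0.862). The lower end of the interval lies above the log2 fold change of CRY1.

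In the linked loop NR1D1 fell and NR1D2 was not called. NR1D1 (ENSG00000126368.5, chromosome 17) stood at 40.1, 48.3 and 47.6 CPM in the AHR siRNA libraries, against 54.2, 63.2 and 59.2 CPM in the control siRNA libraries. The groups did not overlap, with AHR siRNA replicate 1 the lowest of all 6 libraries, as it was for PER1, PER2 and DBP. NR1D1 fell by 0.38 on the log2 scale (SE 0.09, edgeR adjusted p = 0.000879), and the call was kept in all 14 alternative settings, with an adjusted p of at most 0.0407. Annotated exons of NR1D1 overlap those of THRA on the other strand over 263 bases, and THRA, the thyroid hormone receptor alpha gene, had 27.8 CPM in AHR siRNA and 30.1 CPM in control siRNA (edgeR adjusted p = 0.256).

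NR1D2 (ENSG00000174738.11, chromosome 3) stood at 66.3, 65.2 and 72.0 CPM in the AHR siRNA libraries, against 65.6, 69.0 and 72.8 CPM in the control siRNA libraries. The groups overlapped almost fully. The log2 fold change was -0.03 (95% confidence interval -0.18 to 0.13, edgeR adjusted p = 0.767), with a sign that turned with upper-quartile scaling (0.05) and library totals alone (0.12). RORA, the activating receptor that competes with the REV-ERB proteins, rose. It stood at 169, 142 and 168 CPM in the AHR siRNA libraries, against 119, 143 and 128 CPM in the control siRNA libraries (log2 fold change 0.30, SE 0.08, edgeR adjusted p = 0.00406). AHR siRNA replicate 2 lay within the control range, so the groups overlapped. RORB had 0 counts in every library and was not tested.

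DBP (ENSG00000105516.9, chromosome 19) was not called. It stood at 10.2, 13.2 and 11.5 CPM in the AHR siRNA libraries, against 14.9, 14.8 and 11.4 CPM in the control siRNA libraries. The groups overlapped because control siRNA replicate 3 was low, and without that library the call was made (log2 fold change -0.36, edgeR adjusted p = 0.0317, against -0.24, 95% confidence interval -0.51 to 0.04, adjusted p = 0.132 with all libraries). DBP shares 661 exon bases with SPHK2, a sphingosine kinase gene on the other strand, which rose to 51.9 CPM in AHR siRNA, against 21.5 CPM in control siRNA (log2 fold change 1.28, edgeR adjusted p = 4.44e-10). The sources used here do not say whether the counting used strand, so the part of SPHK2 reads in the DBP value was not tested.

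The other PAR-bZIP factors and NFIL3, the repressor that competes with them at the D-box, did not move as 1 group. TEF, a relative of DBP, had 19.7 ± 1.03 CPM in AHR siRNA and 17.95 ± 1.23 CPM in control siRNA (SD, n = 3 each, log2 fold change 0.14, 95% confidence interval -0.07 to 0.34, edgeR adjusted p = 0.238), and was called higher with library totals alone (0.29, adjusted p = 0.0169). HLF had 5, 3 and 3 counts in AHR siRNA libraries and 12, 16 and 19 in control siRNA libraries, and was called lower near the floor of detection (log2 fold change -2.004, SE 0.44, edgeR adjusted p = 0.000676). NFIL3 fell, at 10.8, 11.5 and 10.4 CPM in the AHR siRNA libraries, against 15.9, 14.1 and 17.5 CPM in the control siRNA libraries (log2 fold change -0.53, edgeR adjusted p = 0.000594).

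BHLHE40 and BHLHE41, bHLH repressors that bind E-boxes and are themselves switched on through them, fell as well. BHLHE40 stood at 12.1, 13.2 and 13.8 CPM in the AHR siRNA libraries, against 23.9, 28.6 and 23.5 CPM in the control siRNA libraries (log2 fold change -0.96, SE 0.11, edgeR adjusted p = 2.96e-07). BHLHE41, at 2.13 ± 0.268 CPM in AHR siRNA and 4.04 ± 0.550 CPM in control siRNA (SD, n = 3 each), changed by -0.92 on the log2 scale (SE 0.21, edgeR adjusted p = 0.00112). CIART, another clock repressor, had at most 7 counts in any library and was not tested. Of the 8 tested clock transcription factors outside the 10 genes, 6 were called lower (NPAS2, BMAL2, HLF, NFIL3, BHLHE40 and BHLHE41), RORA was called higher and TEF was not called, against 30.1% called lower and 60.1% called in either direction among all tested genes. Their median log2 fold change was -0.78, against -0.27 for the 10 genes and 0.01 over all tested genes.

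**Figure D3:**
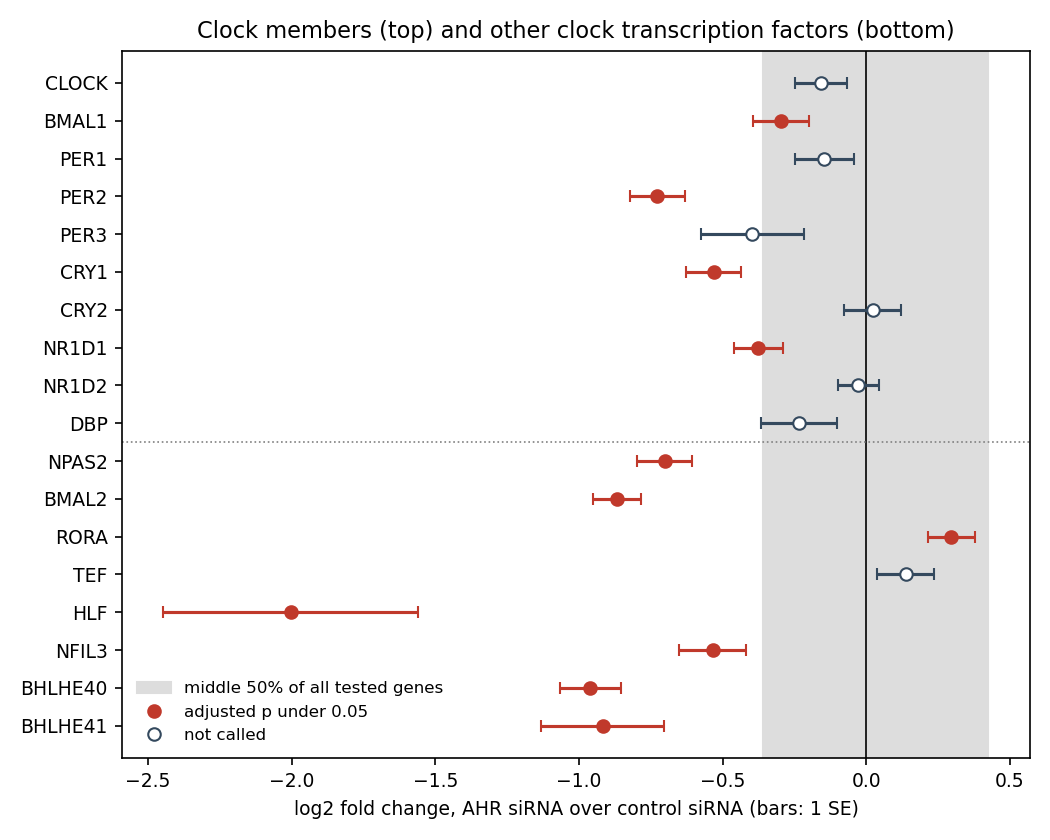
Log2 fold change of AHR siRNA over control siRNA (horizontal axis) for the 10 clock genes above the dotted line and the 8 other tested clock transcription factors below it. Bars are 1 SE, filled points are calls at an adjusted p under 0.05, and the grey band holds the middle 50% of all 14900 tested genes. PER2 at -0.73 and CRY1 at -0.53 lie well outside the band, NR1D1 and PER3 just outside it, and NPAS2, BMAL2, HLF, NFIL3, BHLHE40 and BHLHE41 lie outside it too.

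Ratios between related genes within a library do not depend on how the libraries are scaled. The 6 pairs compared, and which gene stands on top, were chosen with the fold changes known, so the lower ratio in AHR siRNA follows from that choice and the ratios are a description. The groups did not overlap in 5 of the 6. The share of separated ratios among other gene pairs was not computed, and 63.7% of single tested genes did not overlap between the groups. The log2 ratio of PER2 to PER1 counts was -0.25, -0.54 and -0.47 in the AHR siRNA libraries, against 0.12, 0.11 and 0.22 in the control siRNA libraries, a difference of -0.57 (SE 0.09). PER2 was thus below PER1 in every AHR siRNA library and above it in every control siRNA library, on raw counts of genes whose annotated exons are of like total length. The log2 ratio of CRY1 to CRY2 was -0.32, -0.33 and -0.32 in AHR siRNA, against 0.37, 0.42 and -0.09 in control siRNA, a difference of -0.55 (SE 0.16). That of NR1D1 to NR1D2 was -0.72, -0.43 and -0.60 in AHR siRNA, against -0.28, -0.13 and -0.30 in control siRNA, a difference of -0.35 (SE 0.10).

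The alternative partners were set over CLOCK and BMAL1 in the same way. NPAS2 relative to CLOCK averaged -2.70 ± 0.149 in AHR siRNA and -2.15 ± 0.165 in control siRNA on the log2 scale (SD, n = 3 each), a difference of -0.55 (SE 0.13). BMAL2 relative to BMAL1 averaged 0.32 ± 0.157 in AHR siRNA and 0.89 ± 0.0683 in control siRNA, a difference of -0.57 (SE 0.10). PER2 relative to PER3 averaged 1.88 ± 0.214 in AHR siRNA and 2.22 ± 0.264 in control siRNA and overlapped, with a difference of -0.34 (SE 0.20). No p-value is given for pairs chosen in this way.

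**Figure D4:**
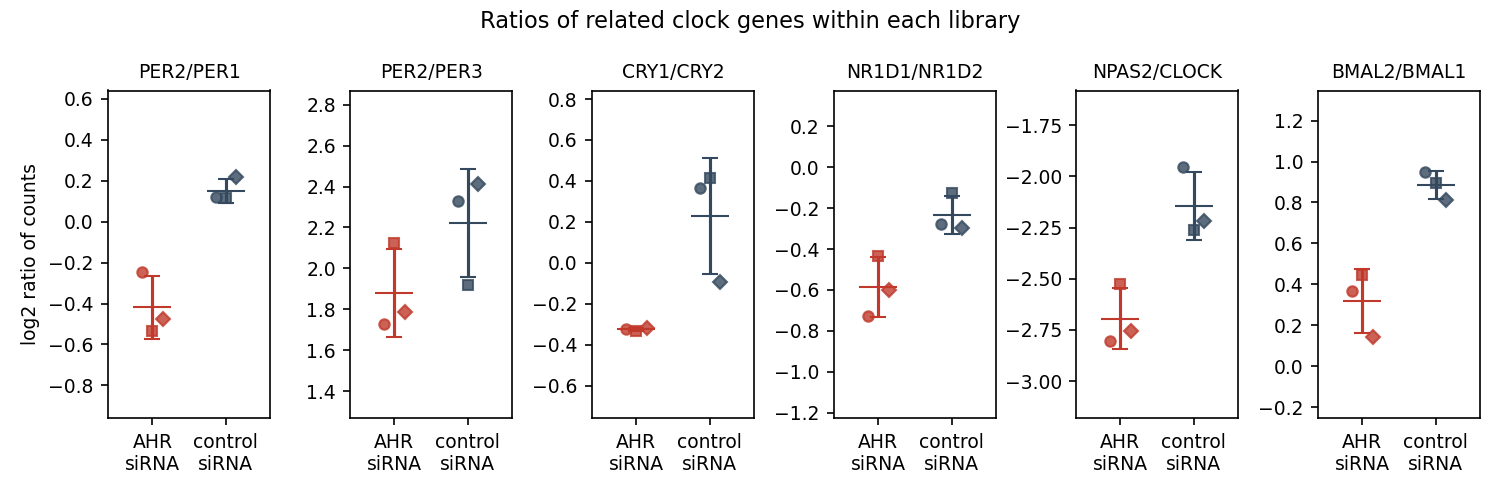
Log2 ratio of the counts of related clock genes within each library (vertical axes, each spanning the same width), for the 3 AHR siRNA and the 3 control siRNA libraries. Circles, squares and diamonds are replicates 1, 2 and 3, the horizontal bar is the mean and the whiskers are 1 SD. The groups are separated in all panels except PER2 to PER3.

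Levels were also put in order per kilobase of annotated exon (GENCODE 29). NR1D1 was the highest of the 10 genes, at 16.4 ± 1.64 CPM per kilobase in AHR siRNA and 21.2 ± 1.62 CPM per kilobase in control siRNA (SD, n = 3 each). NR1D2 followed with 11.7 and 11.9 CPM per kilobase, and CLOCK with 8.08 and 9.003 CPM per kilobase in AHR siRNA and control siRNA. In AHR siRNA, CRY2 at 3.49 CPM per kilobase stood next after CLOCK, before CRY1 at 3.41, PER1 at 3.03, BMAL1 at 2.64 and PER2 at 2.29. In control siRNA, CRY1 came next at 4.93 CPM per kilobase, ahead of PER2 at 3.803, CRY2 at 3.44, PER1 at 3.36 and BMAL1 at 3.25, and the control ranges of neighbours overlapped from PER2 down to BMAL1. The AHR siRNA ranges of neighbours overlapped from CRY2 down to BMAL1. By its means, PER2 held place 8 in AHR siRNA and place 5 in control siRNA. DBP had 1.77 CPM per kilobase in AHR siRNA and 2.09 in control siRNA. PER3 was the lowest, at 0.532 CPM per kilobase in AHR siRNA and 0.698 in control siRNA. Exon length counts all annotated exons of a gene, so genes with annotated exons that are seldom used are placed too low.

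The library with the lowest value of its group was noted for each clock gene. The same tally over all tested genes was not made, so nothing particular to the clock genes follows. AHR siRNA replicate 1 was the lowest of its group for PER1, PER2, NR1D1 and DBP, and AHR siRNA replicate 2 for the other 6. Control siRNA replicate 1 had the lowest CPM of its group for 7 of the 10 genes (CLOCK, BMAL1, PER1, PER2, PER3, NR1D1 and NR1D2) and the highest for CRY1 and DBP. Without control siRNA replicate 1, 6 of the 10 genes were called, all lower. Over all genes 8993 of 15308 tested were then called, 4523 lower and 4470 higher. The share called in either direction, 6 of 10, lies near that among all genes. The share called lower, also 6 of 10, lies above the 4523 of 15308 among all genes. No test was run over the 10 genes as a list. Leaving out any other library gave 3 to 5 calls, all lower, against 8050 to 8606 calls over all tested genes, 4065 to 4322 of them lower.

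The pattern of PER2 over the 6 libraries was closest to that of FAM107B, NMT2 and NUP188 among the 11003 tested genes with a symbol and a mean of at least 5 CPM. The root mean square difference of centred log2 CPM from PER2 was 0.02 for FAM107B and 0.04 for both NMT2 and NUP188. NUP188 encodes a nuclear pore protein and NMT2 an enzyme that attaches myristate to proteins. The log2 fold changes were -0.71 for FAM107B, -0.67 for NMT2 and -0.65 for NUP188. These genes were picked for their likeness to PER2 in the same libraries, so fold changes near that of PER2 follow from the choice.

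Genes that act on clock proteins are given by list, each to be read against the 30.1% of all tested genes called lower and the 30.0% called higher. Of 16 tested kinase and phosphatase genes, 7 were lower and 2 higher. The share called in either direction, 9 of 16, lies near the 60.1% among all tested genes. By direction, more were lower than higher, unlike among all tested genes, and no test was run over the list. Their median log2 fold change was -0.12, against 0.01 over all tested genes. MAPK8, which encodes the kinase JNK1, had 32.2 ± 1.79 CPM in AHR siRNA and 54.1 ± 2.99 CPM in control siRNA (SD, n = 3 each, log2 fold change -0.75, edgeR adjusted p = 1.51e-07). PPP1CA, a catalytic subunit of the phosphatase that can remove phosphate from PER proteins, fell by 0.64 on the log2 scale, and the casein kinase gene CSNK1A1 fell by 0.55. GSK3B, a kinase of several clock proteins, rose to 133 ± 5.33 CPM in AHR siRNA, against 89.4 ± 1.41 CPM in control siRNA (SD, n = 3 each, log2 fold change 0.57, edgeR adjusted p = 4.11e-07). The casein kinase genes best known for setting the pace of PER degradation, CSNK1D and CSNK1E, were named after their values were seen: their log2 fold changes were 0.05 and 0.04 (edgeR adjusted p = 0.562 and 0.638).

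Of 13 tested ubiquitin ligase and protease genes, 6 were lower and 2 higher, against 30.1% lower and 30.0% higher among all tested genes. The share called in either direction, 8 of 13, lies near the 60.1% among all tested genes. Their median log2 fold change was -0.19, against 0.01 over all tested genes. USP7, which removes ubiquitin from CRY1, fell to 196 ± 5.23 CPM in AHR siRNA, against 247 ± 3.36 CPM in control siRNA (SD, n = 3 each, log2 fold change -0.33, edgeR adjusted p = 0.00014). UBE3A, a ligase that acts on BMAL1, fell by 0.29, a call that was lost with library totals alone (-0.14, edgeR adjusted p = 0.0827). FBXW11, which recognises phosphorylated PER proteins, rose to 60.6 ± 2.30 CPM in AHR siRNA, against 46.3 ± 2.91 CPM in control siRNA (SD, n = 3 each, log2 fold change 0.39, edgeR adjusted p = 0.000197).

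Of 20 tested cofactor genes, 10 were lower and 1 higher, against 30.1% lower and 30.0% higher among all tested genes. The share called in either direction, 11 of 20, lies near the 60.1% among all tested genes. Their median log2 fold change was -0.17, against 0.01 over all tested genes. NAMPT, the enzyme that makes NAD for the deacetylase SIRT1 and whose mouse gene is driven by CLOCK and BMAL1, fell to 122 ± 8.49 CPM in AHR siRNA, against 234 ± 2.94 CPM in control siRNA (SD, n = 3 each, log2 fold change -0.94, SE 0.07, edgeR adjusted p = 7.91e-10). DDX6, an RNA helicase, fell by 0.82 on the log2 scale. WDR5, a histone methyltransferase subunit, fell by 0.68, and SFPQ, an RNA-binding protein, by 0.65. In mouse, WDR5 and SFPQ were found in PER complexes.

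Of 18 tested output genes outside the loop, 7 were lower and 6 higher, against 30.1% lower and 30.0% higher among all tested genes. The median size of their log2 fold changes was 0.61, against 0.39 over all tested genes. WEE1, the kinase that delays mitosis and whose mouse gene is driven through E-boxes, fell to 64.1 ± 3.58 CPM in AHR siRNA, against 113 ± 3.03 CPM in control siRNA (SD, n = 3 each, log2 fold change -0.82, SE 0.07, edgeR adjusted p = 7.42e-09). CDKN1A, the cell cycle inhibitor gene that REV-ERB alpha represses in mouse liver, fell by 1.37. HMOX1, which breaks down heme, the ligand of the REV-ERB proteins, fell by 1.54. The Krüppel-like factor genes KLF10 and KLF11 fell by 1.09 each, whereas KLF15 rose to 7.60 ± 0.739 CPM in AHR siRNA, against 2.50 ± 0.623 CPM in control siRNA (SD, n = 3 each, log2 fold change 1.61, edgeR adjusted p = 7.44e-07). ARRDC3, an alpha-arrestin gene, rose by 1.15 on the log2 scale. Of the 75 tested genes in these 5 lists, 36 were lower and 12 higher with the scaling used here, against 4479 lower and 4474 higher among all 14900. With library totals alone 32 were lower and 21 higher, against 3205 lower and 5885 higher among all 14900. The share called at all, 48 of 75, lies near the 60.1% among all tested genes.

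**Figure D5:**
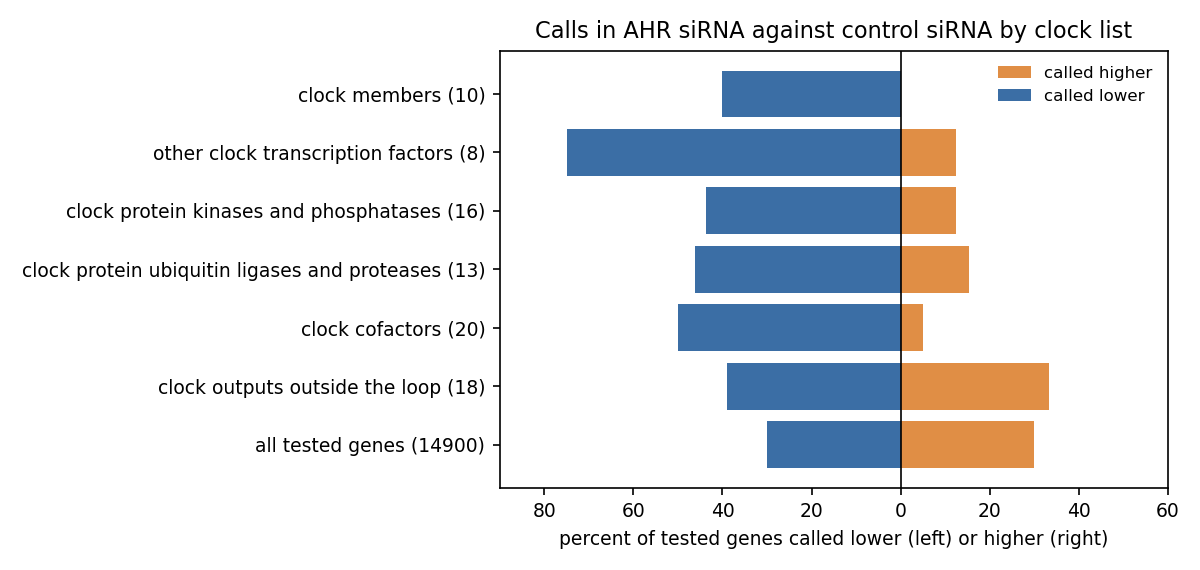
Share of tested genes called lower (to the left) or higher (to the right) in AHR siRNA against control siRNA, in percent (horizontal axis), for the 10 clock genes, the 5 other clock lists and all tested genes, with the number tested in brackets. All tested genes stand at 30.1% lower and 30.0% higher. No bar extends to the right for the 10 clock genes.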

How the data were processed

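Per the labels' protocols, total RNA of DLD-1 cells was extracted with Trizol and made into Illumina libraries. The authors deposited raw counts per gene, 1 headerless table for each of the 6 samples. The submitters' processing notes name HTSeq, TopHat and TopHat2 2.0.11 as tools and hg19 and GRCh37 as builds. The sources used here do not give the annotation release, the strand setting or the treatment of reads with several matches. Each table listed 60483 gene IDs, of which 56753 had a name in GENCODE 29. Groups and replicate numbers came from the sample titles. No label says that the replicates were separate cultures, so the p-values here reflect only library-to-library spread, which may be technical in origin.

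Counts were tested with edgeR 4.0.16 in R 4.3.3: filterByExpr kept 14900 genes, TMM scaled the libraries, and glmQLFTest compared the groups with Benjamini-Hochberg adjustment over all tested genes. CPM values use the TMM-adjusted library sizes. SE is the size of the log2 fold change over the square root of F. The code was tested on simulated data with known changes. Alternatives were DESeq2 size factors, upper-quartile factors, library totals, no filter, a filter of 1 CPM in 3 samples, the DESeq2 1.42.0 Wald test, limma-voom (limma 3.58.1), a replicate block, a stricter adjusted p of 0.01 and leaving out each library. Members, lists and ratios were chosen with earlier results of these data known. The genes named from each of the 5 other lists are up to 4 called genes with the smallest p, any called with a fold of at least 2, and every tested clock transcription factor. A few genes on these lists are counted but not reported here by name. Promoter windows came from RefSeq (GRCh38.p14). No coordinates were taken from the count tables.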

Additional observations from a re-analysis of the deposited data

How the results depend on the processing

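All counts of called genes stayed within 1.5 times of the values reported: 3 to 6 of the 10 clock genes, 45 to 52 of the 75 other clock network genes and 8050 to 8993 of all genes were called when 1 library was left out. With the replicate block, 5 clock genes, 52 network genes and 9598 of all genes were called; the added clock gene was CLOCK (log2 fold change -0.16, edgeR adjusted p = 0.0431). Replicate numbers were not taken as pairs, since same-numbered libraries did not all deviate together (Pearson correlation of deviations across genes 0.40, -0.10 and 0.34), and not every library correlated best with its own number. Scaling moved the split of all calls: 5223 of 9004 were higher with upper-quartile factors and 5885 of 9090 with library totals alone, against 4474 of 8953 with TMM, and library totals shifted the median gene by 0.15 on the log2 scale. PER2, CRY1 and NR1D1 kept their calls in all 14 alternatives run on single genes. Signs turned only in uncalled clock genes: PER1 with library totals alone (0.0020), NR1D2 with upper-quartile factors (0.052), with library totals alone (0.12) and over single libraries left out (-0.072 to 0.0024), and CRY2 over single libraries left out (-0.063 to 0.11). The cause was not tested. The 6 ratios kept their direction with each library left out, an alternative chosen after seeing the data. Where the groups do not overlap, leaving out 1 library cannot turn the direction, so nothing follows for those ratios. Counts per library limit PER3, HLF and BHLHE41 most.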
